A study of Bos taurus with 4 samples.

Results

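The comparison was between bovine intestinal organoids at passage 10 (P10) and at passage 5 (P5), and it covered every row of the deposited QuantSeq 3′ mRNA-Seq count files, in which a row is a gene symbol with its number of reads. The files held 29792 rows, of which 19894 had a read in either organoid library (18920 at P5 and 17563 at P10), and 13383 had at least 50 reads in the 2 libraries together and were compared. Intestinal organoids are small hollow epithelial structures grown from intestinal crypts in a gel. Per the labels, both cultures came from crypts of the jejunum of healthy Hanwoo cattle (strain Hanwoo cow, Bos taurus) older than 24 months, were embedded in Matrigel, a basement membrane extract, and were grown in Intesticult medium. The labels named no introduced allele and no treatment, and passage was the one difference they gave between the 2 cultures. There was 1 library per passage, and the labels did not say whether the 2 cultures came from the same animal or how many wells were pooled, so a difference between passages cannot be told apart from a difference between cultures, animals, days of harvest or libraries. The series also held 1 library of whole bovine intestine and 1 of muscle, and the intestine library is given below as a reference level.

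The lining of the small intestine is renewed from the base of the crypt. Stem cells there divide and give rise to transit-amplifying cells, which divide quickly and then mature into absorptive enterocytes or into secretory goblet, enteroendocrine and tuft cells. Wnt and Notch signals at the crypt base favour stem and dividing cells, while enterocytes acquire a brush border of microvilli loaded with digestive enzymes and nutrient transporters as they move up the villus. In organoid culture the balance between these states depends on the medium and on the time since the last split.

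The P5 library held 13599831 reads and the P10 library 17730571 reads, 1.30 times as many, and levels are therefore given as CPM, the reads of a row scaled to a library of 1000000 reads, in which 1 CPM was worth 13.6 reads at P5 and 17.7 reads at P10. A ratio is the CPM at P10 over that at P5, with an exact (Clopper-Pearson) 95% interval that covers counting error only, since the reads carried no molecular identifiers and no second library measured the spread between cultures. No p-value could be given. A row is called higher or lower at P10 where its CPM differed at least 2-fold and the row passed the minimum of 50 reads. A fold against a library with 0 reads was computed against 3 reads and is a lower bound.

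By this rule 2133 of 13383 rows (15.9%) were higher and 1660 (12.4%) were lower at P10, and 9590 rows (71.7%) lay within 2-fold. A ratio above 1 was found in 7729 of the 13383 rows and a ratio below 1 in 5654, and counts of such ratios in gene groups have to be read against these. The median log2 ratio over all rows was 0.16, which is the level against which the medians of gene groups below have to be read. It moved to -0.01 when RN18S1 and the mitochondrially encoded rows were left out of the library totals, and the calls then became 1594 higher and 2041 lower. The lower rows had the longer tail. At least 8-fold differences were found in 105 higher and 263 lower rows, and at least 32-fold differences in 25 higher and 85 lower rows. The 32-fold counts may include rows without a read at P5 or at P10 whose bound was under 32-fold. ATF3, for example, had 50 reads at P5, none at P10 and a bound of 21.7-fold. There were 34 rows with at least 50 reads at P5 and none at P10, against 15 rows in the opposite direction. The rows that were lower held 22.4% of all reads at P5 and 5.70% at P10, compared with 24.0% in the intestine, and the rows that were higher held 8.68% at P5 and 22.1% at P10, compared with 7.64% in the intestine. The lower rows included 7 of the 13 mitochondrially encoded rows. They also included RN18S1, which alone took 4.81% of reads at P5, 0.264% at P10 and 4.08% in the intestine. The CPM in the intestine was below that of both passages in 1096 of the 2133 higher rows and between them in 738, and it was above that of both passages in 512 of the 1660 lower rows and between them in 808.

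**Figure D1:**
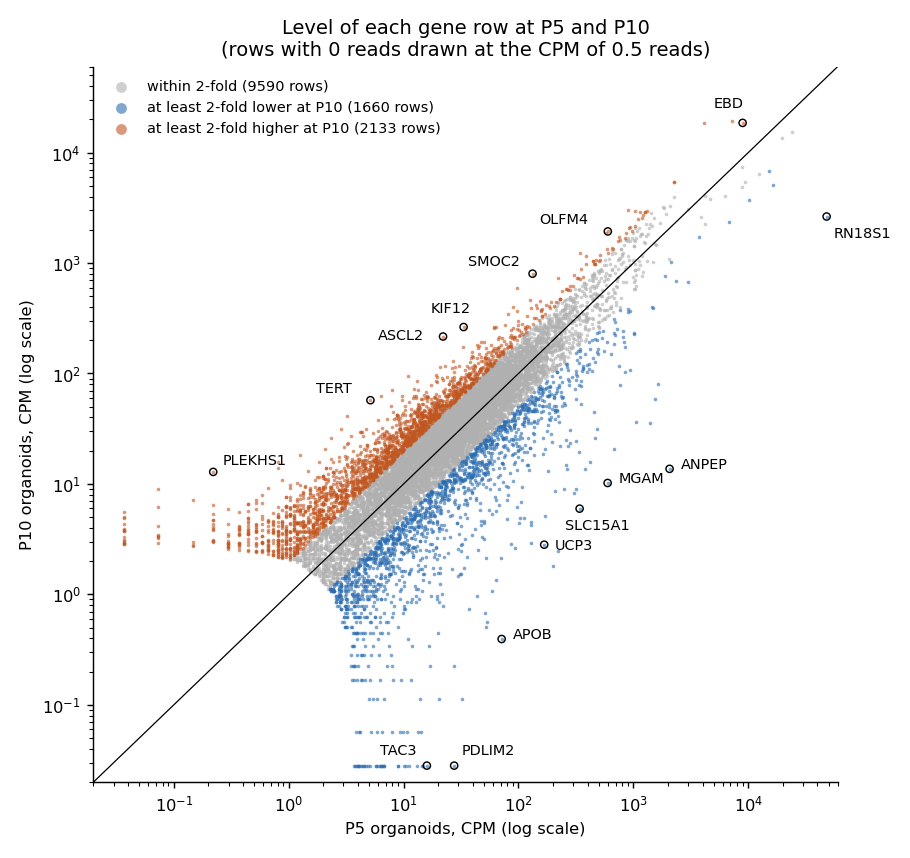
CPM of each of the 13383 compared rows at P5 (x axis) and P10 (y axis), both on log scales, with rows at least 2-fold higher at P10 in orange, at least 2-fold lower in blue and the others in grey; the line marks equal CPM. The blue cloud reaches farther from the line than the orange one, with ANPEP (243 reads at P10 against 28104 at P5), APOB and PDLIM2 among the rows farthest below it.

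Genes of crypt stem cells were mostly higher at P10. Of 26 such genes, 22 passed the read minimum, 14 were higher, 1 was lower and the median log2 ratio was 1.42. Their summed level was 2169 CPM at P5, 4668 CPM at P10 and 1113 CPM in the intestine. ASCL2, the transcription factor that maintains the stem cell state downstream of Wnt, had 300 reads at P5 and 3832 at P10, a level 9.8-fold (8.71 to 11.1) higher. SMOC2, a secreted matrix protein of the stem cell zone, had 1804 reads at P5 and 14206 at P10 and was 6.04-fold (5.75 to 6.35) higher, and OLFM4, a secreted glycoprotein that marks crypt base cells, had 8151 reads at P5 and 34268 at P10 and was 3.22-fold (3.15 to 3.3) higher. All 3 stood above the intestine library at both passages, where ASCL2 was at 8.72 CPM, SMOC2 at 101 CPM and OLFM4 at 83.8 CPM. SOX9, a transcription factor of crypt progenitors (3.2-fold, 2.98 to 3.44), the guidance receptor EPHB3, which keeps cells at the crypt base (3.86-fold, 3.47 to 4.3), CDCA7 (4.12-fold, 3.69 to 4.61) and ZNRF3, a ligase that removes Wnt receptors from the membrane (3.38-fold, 2.83 to 4.04), were also higher. NKD1, a Wnt target that dampens the pathway, had 1 read at P5 and 58 at P10, a ratio of 44.5 (7.68 to 1787) that rested on a single read. PHLDA1 was the member that was lower, 2.1-fold (1.94 to 2.27). CD24, which had the second most reads of the list, was within 2-fold with 10635 reads at P5 and 8569 at P10.

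LGR5, the R-spondin receptor that marks the cycling crypt stem cell, went the other way at a very low level. It had 34 reads at P5 and 9 at P10, fewer than 50 in all, and a ratio of 0.203 (0.0856 to 0.432), whose interval lay below 1. Its level was 2.5 CPM at P5, 0.508 CPM at P10 and 1.29 CPM in the intestine. LEF1, a nuclear partner of β-catenin, was also under the read minimum, with 19 reads at P5 and 1 at P10, while AXIN2, the feedback inhibitor of Wnt that is read as a general Wnt target, had 200 reads at P5 and 477 at P10 and a ratio of 1.83 (1.55 to 2.17). BMI1, a polycomb protein associated with reserve stem cells, had 142 reads at P5 and 265 at P10 and a ratio of 1.43 (1.16 to 1.77), within 2-fold. In a library made from whole organoids, fewer cells of a type and less RNA per cell cannot be told apart, and this holds for each group below.

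**Figure D2:**
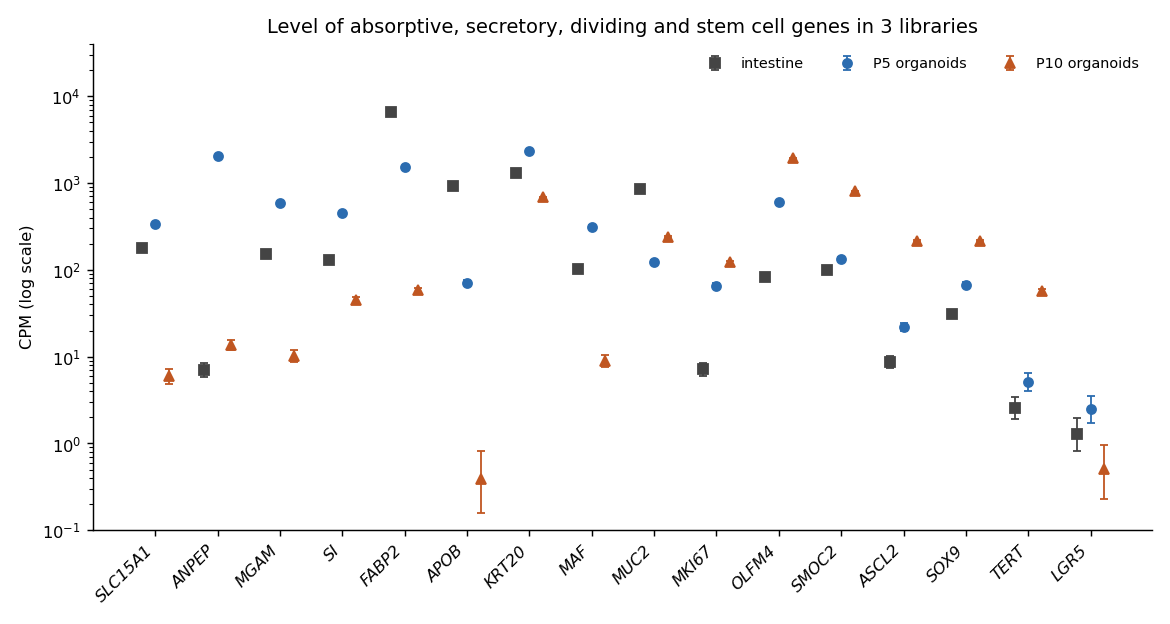
CPM (log scale) of 16 genes in the intestine (grey squares), P5 (blue circles) and P10 (orange triangles) libraries; bars are exact 95% Poisson intervals of the counts. Absorptive genes on the left were lower at P10 than at P5, ASCL2, SMOC2, OLFM4, SOX9 and TERT were higher at P10 than in both other libraries, and LGR5 stayed at or below 2.5 CPM throughout.

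Genes of cell division had ratios above 1 in most cases, fewer of them past 2-fold. Among 36 genes of the G1/S transition and DNA replication every member passed the minimum, all 36 had a ratio above 1, 15 were higher and none was lower, with a median log2 ratio of 0.86. MCM2 and MCM7, subunits of the helicase that opens replication origins, were 3.04-fold (2.87 to 3.23) and 3.14-fold (2.9 to 3.4) higher. MCM5 of the same helicase had 322 reads at P5 and 1642 at P10 and was 3.91-fold (3.47 to 4.42) higher, and RRM2, the regulatory subunit of ribonucleotide reductase, had 1328 reads at P5 and 4476 at P10 and was 2.59-fold (2.43 to 2.75) higher. RRM1, its catalytic partner, was within 2-fold, at a ratio of 1.8 (1.71 to 1.9). Of 32 genes of the G2/M transition and mitosis, 27 had a ratio above 1, 5 (15.6%) were higher and none was lower, with a median log2 ratio of 0.79. This share of higher genes was near that of all rows (15.9%). The number that was higher was 3 or 4 under the other scalings. PLK1, the kinase that drives entry into mitosis, had the largest difference of this list, 618 reads at P5 and 3151 at P10 (3.91-fold, 3.59 to 4.27). The PLK1 row overlaps ERN2, which was also higher, so the 2 rows may share reads. MKI67, which encodes the proliferation antigen Ki67, had 891 reads at P5 and 2168 at P10 and a ratio of 1.87 (1.73 to 2.02), with 7.2 CPM in the intestine. TOP2A, with 2332 reads at P5 and 2858 at P10, and CENPE, with 849 reads at P5 and 748 at P10, were on the other side of equality at ratios of 0.94 and 0.676.

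Of 22 cell cycle inhibitors and damage response genes, 20 passed the minimum, none was higher and 2 were lower (up to 4 under the other scalings), while the median log2 ratio was 0.29. CDKN2B, which encodes the p15 inhibitor of CDK4 and CDK6, had 1078 reads at P5 and 86 at P10 and was 16.3-fold (13.1 to 20.6) lower, whereas the related inhibitor gene CDKN2A had 338 reads at P5 and 326 at P10, a ratio of 0.74 (0.633 to 0.864). GADD45A, a stress-induced growth arrest gene, was 4.21-fold (3.72 to 4.79) lower. CDKN1A, which encodes p21 and arrests the cell cycle, was within 2-fold with 9003 reads at P5 and 6361 at P10.

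Genes of telomere maintenance leaned towards P10. TERT, the catalytic subunit of telomerase, had 70 reads at P5 and 1016 at P10 and was 11.1-fold (8.73 to 14.4) higher, reaching 57.3 CPM against 2.59 CPM in the intestine. Of 16 genes of telomere maintenance all passed the minimum, 6 (37.5%, against 15.9% of all rows) were higher and none was lower, with a median log2 ratio of 0.39. This count was 3 under the scaling that moved it most. ACD, a shelterin subunit that recruits telomerase, had 32 reads at P5 and 301 at P10 (7.21-fold higher, 5.0 to 10.7), and NHP2, a protein of the telomerase and snoRNA particle, had 249 reads at P5 and 839 at P10 (2.58-fold higher, 2.24 to 2.99). Of the other shelterin members, TERF2 was higher, with 412 reads at P5 and 1134 at P10 (2.11-fold, 1.88 to 2.37). TERF1 and POT1 were within 2-fold, at ratios of 1.56 (1.32 to 1.85) and 1.33 (1.09 to 1.64). TINF2 and TERF2IP also stayed within 2-fold, at 742 reads at P5 and 853 at P10 and 686 reads at P5 and 683 at P10 respectively. DKC1, the pseudouridine synthase of the particle, had a ratio of 1.2 (1.11 to 1.29).

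The brush border enzymes showed the opposite pattern, with the lowest median of the lists. Of 20 brush border hydrolases, 13 passed the minimum, 12 were lower and none was higher, with a median log2 ratio of -3.03. Their summed level was 4125 CPM at P5, 165 CPM at P10 and 1223 CPM in the intestine, 25.1-fold lower at P10 than at P5 (24.1 to 26). ANPEP, the aminopeptidase N that trims peptides at the brush border, had 28104 reads at P5 and 243 at P10, 151-fold (133 to 172) lower, and only 7.03 CPM in the intestine, so that it was the P5 library that stood apart for this gene. MGAM and SI, the maltase-glucoamylase and sucrase-isomaltase that finish starch digestion, had 8118 reads at P5 and 181 at P10 and 6210 reads at P5 and 797 at P10, and were 58.5-fold (50.5 to 68.1) and 10.2-fold (9.43 to 10.9) lower. DPP4, a dipeptidyl peptidase, was 6.58-fold (5.79 to 7.49) lower. The member within 2-fold was MEP1B, a subunit of the protease meprin, with 381 reads at P5 and 334 at P10. LCT, the lactase of the suckling animal, had 1 read in each library.

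Nutrient transporters followed the enzymes. Of 30 genes for peptide, amino acid, bile acid, vitamin and anion transport, 29 passed the minimum, 22 were lower and 1 was higher, with a median log2 ratio of -2.19. SLC6A19, the main neutral amino acid transporter of enterocytes, had 18937 reads at P5 and 628 at P10 and was 39.3-fold (36.3 to 42.6) lower. For SLC15A1 (PEPT1), the proton-driven carrier of di- and tripeptides, there were 4631 reads at P5 and 106 at P10, and its level was 57-fold (47 to 69.7) lower, with 181 CPM in the intestine between the passages. The sulphate transporter SLC13A1 was 89.5-fold (66.5 to 123) lower, and the ileal bile acid transporter SLC10A2, with 4605 reads at P5 and 343 at P10, was 17.5-fold (15.7 to 19.6) lower. In the intestine SLC6A19, SLC13A1 and SLC10A2 stood at 0.9, 0.0563 and 0 CPM, below both passages. SLC16A10, a carrier of aromatic amino acids, was the member that was higher, with 79 reads at P5 and 314 at P10 (3.05-fold, 2.38 to 3.95), and SLC6A14, a broad amino acid carrier, was within 2-fold with 1963 reads at P5 and 3435 at P10. The sugar list was divided: of 12 genes 8 passed, 3 were lower (4 under the other scalings) and 1 was higher. The sodium-glucose transporter SLC5A1 (SGLT1) had 262 reads at P5 and 121 at P10 and was 2.82-fold (2.27 to 3.53) lower, and PCK1, an enzyme of glucose synthesis, had 85 reads at P5 and none at P10, at least 36.9-fold lower. SLC2A5, the fructose transporter, was 2.56-fold (1.49 to 4.6) higher with 18 reads at P5 and 60 at P10.

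In the list of lipid handling genes 18 of 28 passed the minimum, 8 were lower and 2 were higher, with a median log2 ratio of -0.82. Of the genes that build a chylomicron, the particle that exports fat from the enterocyte, APOB, MTTP and APOA1 had at most 7 reads at P10. APOB, its structural protein, had 971 reads at P5 and 7 at P10, 181-fold (87.4 to 451) lower. MTTP, the transfer protein that loads APOB with fat, had 193 reads at P5 and 1 at P10, 252-fold (44.6 to 9989) lower, and APOA1, an apolipoprotein of the same particle, had 136 reads at P5 and none at P10, at least 59.1-fold lower. In the intestine APOB stood at 935 CPM, MTTP at 272 CPM and APOA1 at 1116 CPM, each above both passages. The intracellular fatty acid carriers FABP2, with 21036 reads at P5 and 1038 at P10, and FABP1, with 5328 reads at P5 and 1825 at P10, were 26.4-fold (24.8 to 28.1) and 3.81-fold (3.61 to 4.02) lower. SLC27A4, a fatty acid transport protein, had 11 reads at P5 and 89 at P10, and SCARB1, a receptor for high density lipoprotein, had 217 reads at P5 and 1114 at P10, and both were higher.

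Genes of the microvillus scaffold were also mostly lower. Of 25 microvillus and enterocyte structure genes all passed the minimum, 20 were lower, 1 was higher (none under the scaling that moved it most) and the median log2 ratio was -1.61. KRT20, the keratin of mature villus cells, had 31917 reads at P5 and 12134 at P10 (3.43-fold lower, 3.36 to 3.5). TMIGD1, a membrane protein of the brush border, had 14255 reads at P5 and 649 at P10 (28.6-fold, 26.5 to 31), and CDHR2 and CDHR5, the protocadherins that link neighbouring microvilli, were 4.09-fold (3.88 to 4.31) and 6.1-fold (5.43 to 6.87) lower. The actin bundler VIL1 was within 2-fold, with 4551 reads at P5 and 3427 at P10, and VILL, a relative of villin, was the member that was higher, with 59 reads at P5 and 164 at P10. Taking the enzyme, transporter, sugar, lipid and microvillus lists as one, 65 of 93 genes past the minimum were lower and 5 were higher, and their summed level was 19331 CPM at P5, 4377 CPM at P10 and 42427 CPM in the intestine. The lipid list held 33347 CPM of the intestine sum, against 2609 CPM at P5. The sugar list was also higher in the intestine (1154 CPM) than at P5 (763 CPM). The enzyme, transporter and microvillus lists were lower there, at 1223, 1488 and 5215 CPM against 4125, 4121 and 7714 CPM at P5.

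**Figure D3:**
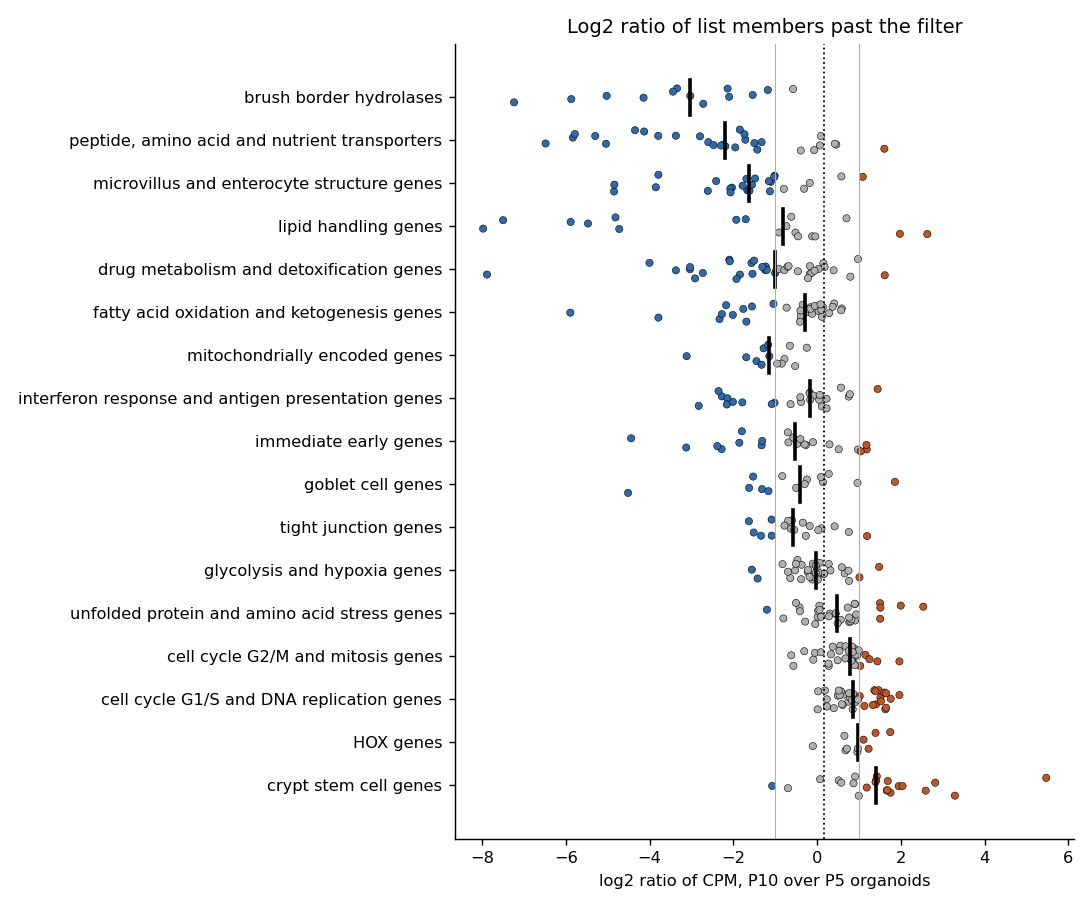
Log2 ratio of CPM, P10 over P5, for every member past the read minimum of 17 gene lists; each point is 1 gene row, orange and blue points are at least 2-fold higher and lower, the thick bar is the median of the list, the dotted line is the median of all rows (0.16) and the grey lines mark 2-fold. The list medians ran from -3.03 for brush border hydrolases to 1.42 for crypt stem cell genes.

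Genes for metals, vitamins and ions were divided. Of 22 iron, calcium and retinoid genes 16 passed, 6 were lower (up to 9 under the other scalings) and 2 were higher. SLC40A1 (ferroportin), which exports iron into the blood, had 2238 reads at P5 and 328 at P10 and was 8.9-fold (7.92 to 10) lower, and SLC11A2 (DMT1), which takes it up, was 5.42-fold (5.06 to 5.8) lower, while FTH1, the ferritin heavy chain, had 13865 reads at P5 and 28437 at P10, a ratio of 1.57 (1.54 to 1.61). The manganese exporter SLC30A10 had 201 reads at P5 and none at P10, at least 87.4-fold lower, and LRAT, which esterifies retinol, had 86 reads at P5 and none at P10, at least 37.4-fold lower. Among 22 ion channel and guanylin genes 15 passed, 7 were lower and 4 were higher (7 to 9 lower and 3 higher under the other scalings). The chloride secretion genes SLC12A2, with 2149 reads at P5 and 6615 at P10, and KCNQ1, with 557 reads at P5 and 2113 at P10, were 2.36-fold (2.25 to 2.48) and 2.91-fold (2.65 to 3.2) higher, and the chloride channel CFTR was within 2-fold with 1822 reads at P5 and 2090 at P10. Guanylin (GUCA2A) and its receptor GUCY2C were 2.81-fold (2.6 to 3.03) and 4.07-fold (3.67 to 4.53) lower, and the carbonic anhydrase CA2 had 88 reads at P5 and none at P10, at least 38.2-fold lower.

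Genes of the secretory lineages had median ratios below 1, from few genes in the enteroendocrine and tuft cell lists. Of 27 goblet cell genes 14 passed the minimum, 5 (35.7%) were lower and 1 was higher, with a median log2 ratio of -0.40. MUC2, the gel-forming mucin of goblet cells, had 1666 reads at P5 and 4242 at P10 and a ratio of 1.95 (1.84 to 2.07), just inside 2-fold, and TFF3, a trefoil peptide secreted with it, had 8005 reads at P5 and 5869 at P10. CLCA1, a protease of the mucus layer, had 1366 reads at P5 and 78 at P10 and was 22.8-fold (18.2 to 29.1) lower, and ATOH1, the transcription factor that commits cells to secretory fates, was 3.08-fold (2.36 to 4.05) lower. Of 35 enteroendocrine genes 6 passed the minimum, 1 was lower (2 under the scaling that moved it most) and none was higher, with a median log2 ratio of -0.63. CHGA, the granule protein chromogranin A, had 43 reads at P5 and 95 at P10 (ratio 1.69, 1.17 to 2.49), and the progenitor factor NEUROG3 had 36 reads at P5 and 51 at P10. The called member was TAC3, a neuropeptide gene, with 217 reads at P5 and none at P10, at least 94.3-fold lower; it lies next to MYO1A, which was also lower. Of 19 tuft cell genes 3 passed, with a median log2 ratio of -1.13, of which SH2D6 was higher with 21 reads at P5 and 157 at P10, and PLCG2 and DCLK1 were lower with 787 reads at P5 and 468 at P10 and 49 reads at P5 and 8 at P10. The tuft cell regulator POU2F3, with 3 reads at P5 and 46 at P10, fell just short of the minimum.

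Secreted defence proteins were among the rows that gained most CPM. PI3 (elafin or trappin-2, a secreted protease inhibitor) had 98603 reads at P5 and 345644 at P10 and was 2.69-fold (2.67 to 2.71) higher. EBD, the enteric β-defensin of cattle, had 121456 reads at P5 and 329091 at P10 (2.08-fold, 2.06 to 2.09), and the uncharacterised row LOC100850808 had 56165 reads at P5 and 325275 at P10 (4.44-fold, 4.4 to 4.48). In the intestine the same rows stood at 475, 14.9 and 351 CPM. The other defensins of the list that had reads enough, TAP, LAP, DEFB1 and DEFB7, were within 2-fold. TAP had 721 reads at P5 and 965 at P10, and LAP had 192 reads at P5 and 352 at P10. DEFB1 had 332 reads at P5 and 397 at P10, and DEFB7 had 46 reads at P5 and 50 at P10. Of 28 Paneth-type antimicrobial rows 13 passed the minimum, with 2 higher (1 under the scaling that moved it most) and 2 lower. REG3G, a bactericidal lectin, was 3.16-fold (2.88 to 3.48) lower, and CCL20, a chemokine with antimicrobial activity, was 22.7-fold (18.2 to 28.5) lower. Lysozyme rows had 2 reads at most in either organoid library. Reads that aligned to several places were counted, so closely related defensins and lysozymes may share reads.

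**Figure D4:**
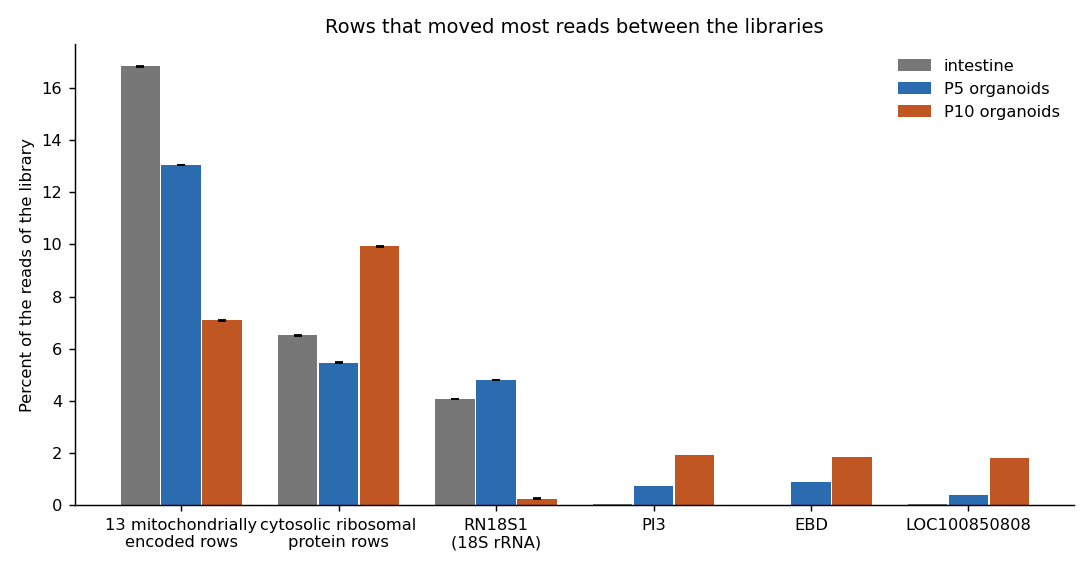
Percent of the reads of each library (y axis, from 0) on the 13 mitochondrially encoded rows, the cytosolic ribosomal protein rows, RN18S1 and the 3 rows PI3, EBD and LOC100850808, in the intestine (grey), P5 (blue) and P10 (orange) libraries. Bars of the first 3 groups carry 95% binomial (Wilson) intervals. Mitochondrially encoded rows went from 13% at P5 to 7.09% at P10 and cytosolic ribosomal proteins from 5.47% to 9.93%.

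The share of some very abundant transcripts also differed. RN18S1, which is 18S ribosomal RNA and has no poly(A) tail, took 4.81% of the reads at P5, 0.264% at P10 and 4.08% in the intestine. The 13 mitochondrially encoded rows took 13% at P5, 7.09% at P10 and 16.8% in the intestine, and all 13 had a ratio below 1, with 7 of them lower. ND3 and CYTB, of respiratory complexes I and III, were 3.23-fold (3.2 to 3.25) and 2.25-fold (2.23 to 2.26) lower, while COX2 was within 2-fold with 119460 reads at P5 and 131507 at P10. These shares differed between the same 2 libraries as every other result, and their part in the results was not tested beyond leaving these rows out of the library totals. The nuclear genes of the respiratory chain were mostly within 2-fold. Of 47 complex I subunits and related genes 2 were higher and none was lower (1 or 2 higher and 1 lower under the other scalings). Of 45 other respiratory subunits 1 was higher and 1 was lower (2 lower under the other scalings).

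Cytosolic ribosomal protein genes had ratios above 1 almost throughout, mostly within 2-fold. Of 83 rows past the minimum, 82 had a ratio above 1, 21 were higher and none was lower, with a median log2 ratio of 0.77. The number that was higher was between 7 and 13 under the other scalings, and none was lower under any of them. RPLP0, a stalk protein of the large subunit, had 30861 reads at P5 and 96391 at P10 (2.4-fold, 2.37 to 2.43), but the overlapping row LOC101902407 held almost the same number, 30811 reads at P5 and 96391 at P10, so that these reads were counted for both. Mitochondrial ribosomal proteins, 78 rows, were mostly within 2-fold (5 higher and 2 lower, or 2 to 5 higher and 3 or 4 lower under the other scalings), as were 38 proteasome subunits (none higher, 1 lower) and 48 translation initiation factors (2 higher, and 1 lower or at most 2 under the other scalings).

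Among transcription factors that shape the intestinal epithelium, 31 of 35 passed the minimum, 7 were lower and 2 were higher. MAF, a factor of mature enterocytes, had 4293 reads at P5 and 158 at P10 and was 35.4-fold (30.2 to 41.8) lower, and NR1H4 (FXR), the nuclear receptor for bile acids, had 1331 reads at P5 and 110 at P10 (15.8-fold, 13 to 19.3). CDX2, a determinant of intestinal identity, had 199 reads at P5 and 24 at P10 and was 10.8-fold (7.06 to 17.3) lower, at 0.225 CPM in the intestine, whereas its relative CDX1 had 1040 reads at P5 and 2613 at P10 and a ratio of 1.93 (1.79 to 2.07). HNF4A was within 2-fold, with 2891 reads at P5 and 4136 at P10, and HNF4G, its enterocyte paralogue, was 3.43-fold (3.21 to 3.67) lower. KLF4 and PRDM1, both found in mature epithelium, were 3.42-fold (2.99 to 3.92) and 7.12-fold (4.74 to 11.1) lower, and SATB1 and ZBTB7C were the higher members, with 55 reads at P5 and 234 at P10 and 133 reads at P5 and 427 at P10.

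Signalling genes moved in both directions. Of 19 Notch pathway genes past the minimum 5 (26.3%) were higher and 2 (10.5%) were lower, against 15.9% and 12.4% of all rows. Under the other scalings 4 were higher and 2 to 5 were lower. The receptors NOTCH1, with 131 reads at P5 and 1104 at P10, and NOTCH3, with 66 reads at P5 and 322 at P10, were 6.46-fold (5.39 to 7.81) and 3.74-fold (2.86 to 4.95) higher, the ligand JAG2 was 8.47-fold (5.75 to 12.9) lower with 195 reads at P5 and 30 at P10, and HES1, the classical target, had 2883 reads at P5 and 1940 at P10, a ratio of 0.516 (0.487 to 0.547). In the Wnt, BMP and TGF-β list 4 of 21 were higher and 5 were lower. The ligands BMP2 and BMP4, which restrain stem cells, had 1967 reads at P5 and 808 at P10 and 370 reads at P5 and 123 at P10 and were 3.17-fold (2.92 to 3.45) and 3.92-fold (3.19 to 4.85) lower, and their targets ID1 and ID2 were 2.96-fold (2.57 to 3.42) and 7.0-fold (5.98 to 8.23) lower, while BMP7 was 2.81-fold (2.35 to 3.37) higher. SMAD6, also a member of the Wnt, BMP and TGF-β list, was higher, and ID3, a relative of ID1 and ID2, was within 2-fold. In the EGF list 5 of 19 (26.3%) were higher and 3 (15.8%) were lower, the latter near the share of all rows. The ligands EREG and AREG were 5.1-fold (4.05 to 6.49) and 3.4-fold (2.76 to 4.2) lower, BTC was 4.18-fold (2.58 to 7.11) higher, and the receptor EGFR was within 2-fold with 1112 reads at P5 and 1127 at P10. ETV4 and ETV5, targets of the pathway, were 2.74-fold (2.5 to 3.02) and 3.47-fold (2.85 to 4.26) higher, and DUSP6, another target, was within 2-fold with 8605 reads at P5 and 6984 at P10.

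Detoxification genes were largely lower. Of 37 rows past the minimum 19 were lower (20 or 21 under the other scalings) and 1 was higher, with a median log2 ratio of -1.0. In the cytochrome P450 family as a whole 12 of 21 were lower and 1 was higher, with a median of -1.31. UGT1A1, which couples bilirubin and drugs to glucuronic acid, had 12301 reads at P5 and 6859 at P10 (2.34-fold lower, 2.27 to 2.41), the drug efflux pump ABCB1 had 4768 reads at P5 and 938 at P10 (6.63-fold lower, 6.18 to 7.12), and CYP3A4 had 924 reads at P5 and 160 at P10 (7.53-fold lower, 6.36 to 8.96). CYP2B6 had 181 reads at P5 and 1 at P10, 236-fold (41.8 to 9371) lower. CYP1B1, an extrahepatic member, was 3.07-fold (1.69 to 5.97) higher with 14 reads at P5 and 56 at P10. Related family members may share reads here too.

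In central metabolism fewer genes were past 2-fold. Of 33 glycolysis and hypoxia genes 2 were higher (1 under the scaling that moved it most) and 2 were lower, around a median log2 ratio of -0.03, and GAPDH had 41032 reads at P5 and 54127 at P10, a ratio of 1.01 (0.999 to 1.02). Of 32 genes of fatty acid oxidation 10 were lower and none was higher. UCP3, an uncoupling protein known mainly from muscle, had 2278 reads at P5 and 50 at P10 (59.4-fold lower, 44.9 to 80.3) and no read in the intestine, and the neighbouring gene UCP2 was 4.51-fold (4.24 to 4.79) lower with 4770 reads at P5 and 1380 at P10. PPARGC1A and PPARG, regulators of mitochondrial and lipid genes, were 4.03-fold (3.61 to 4.51) and 3.39-fold (3.05 to 3.77) lower, while the carnitine transferase CPT1A had 1153 reads at P5 and 1142 at P10. Of 33 cholesterol and fatty acid synthesis genes 7 were higher and 1 was lower (4 or 5 higher and 2 lower under the other scalings). FASN, the fatty acid synthase, had 4669 reads at P5 and 21826 at P10 (3.59-fold higher, 3.47 to 3.7), and the desaturase FADS2 283 reads at P5 and 2018 at P10 (5.47-fold higher, 4.83 to 6.22).

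Of 32 genes of protein folding and amino acid supply, 25 had a ratio above 1, with a median log2 ratio of 0.47. Among them 5 (15.6%) were higher, a share near the background, and 1 was lower. SLC7A5, the large neutral amino acid carrier, was 5.8-fold (4.94 to 6.86) higher, PDIA4, an oxidoreductase of the endoplasmic reticulum, was 4.0-fold (3.65 to 4.39) higher, and PHGDH and PSAT1, the first steps of serine synthesis, were 2.84-fold (2.66 to 3.02) and 2.84-fold (2.4 to 3.39) higher. DNAJB9, a co-chaperone, was 2.29-fold (1.94 to 2.71) lower, and HSPA5 (BiP) was within 2-fold with 6882 reads at P5 and 12224 at P10. Of 26 glutathione and NRF2 target genes 3 were higher and 2 were lower, a share near the background of all rows.

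Immune genes were lower more often than higher. In the interferon and antigen presentation list 9 of 25 (36%) were lower and 1 (4%) was higher, against 12.4% and 15.9% of all rows. B2M, the light chain of MHC class I, had 40394 reads at P5 and 11834 at P10 (4.45-fold lower, 4.36 to 4.54), and IFIH1, GBP4, IRF9 and IFI27 were 7.09-fold (5.02 to 10.2), 4.84-fold (4.23 to 5.55), 4.41-fold (3.75 to 5.21) and 5.1-fold (3.92 to 6.72) lower. TAP1 and PSMB9, which prepare peptides for MHC class I, were within 2-fold with 733 reads at P5 and 990 at P10 and 2863 reads at P5 and 4369 at P10, and the higher member was MX2, an antiviral GTPase, with 54 reads at P5 and 192 at P10. In the cytokine and immune sensing list 8 of 23 (34.8%) were lower and 4 (17.4%) were higher, the latter near the share of all rows. TNFAIP3 and NFKBIA, feedback inhibitors of NF-κB, were 12.6-fold (8.54 to 19.3) and 2.69-fold (2.48 to 2.91) lower, CXCL8 and CCL25 were 3.72-fold (2.92 to 4.79) and 3.93-fold (3.6 to 4.29) lower, and CXCL5 and GRO1, chemokines for neutrophils, were 2.99-fold (2.16 to 4.21) and 3.2-fold (2.01 to 5.29) higher. SOCS3, a feedback inhibitor of STAT3, had 3 reads at P5 and 94 at P10, a ratio of 24 (7.98 to 119). Of 22 immediate early genes 8 (36.4%) were lower and 3 (13.6%, near the share of all rows) were higher, the latter count being 1 under the scaling that moved it most. FOS, JUN, KLF6 and SGK1 were 2.48-fold (2.25 to 2.72), 2.5-fold (2.32 to 2.71), 4.86-fold (4.4 to 5.37) and 8.72-fold (7.4 to 10.3) lower, and NR4A1 and NR4A2 were 2.27-fold (1.38 to 3.86) and 2.28-fold (1.79 to 2.92) higher.

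Junction genes were lower more often than higher. Of 18 tight junction genes 5 (27.8%) were lower and 1 was higher, with a median log2 ratio of -0.57. Of 23 desmosome, cadherin and gap junction genes 20 had a ratio below 1, 7 (30.4%) were lower and 1 was higher (none under the other scalings), with a median log2 ratio of -0.48. CLDN2, CLDN3 and CLDN4, the claudins with most reads, had 6663 reads at P5 and 11620 at P10, 6769 reads at P5 and 5147 at P10 and 5573 reads at P5 and 4505 at P10, all within 2-fold. CDH1 (E-cadherin) had 825 reads at P5 and 846 at P10 and EPCAM 14156 reads at P5 and 10244 at P10. The intestinal cadherin CDH17 was 3.21-fold (3.07 to 3.37) lower, and DSC2, a desmosomal cadherin, was 5.08-fold (4.53 to 5.7) lower. Among keratins, KRT18 had 7790 reads at P5 and 33299 at P10 and was 3.28-fold (3.2 to 3.36) higher, while KRT8, with which it pairs into filaments, had 56690 reads at P5 and 72376 at P10 and KRT19 had 52425 reads at P5 and 46154 at P10, both within 2-fold. COL17A1, a hemidesmosome collagen, was 7.42-fold (6.59 to 8.38) lower, and of 22 basement membrane and matrix adhesion genes 3 were higher and 2 were lower, against 1 or 2 higher and 2 to 4 lower under the other scalings.

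Proteins that the study stained in organoids were followed at the level of their transcripts. Of 13 genes 9 passed the minimum, 2 were lower (SLC15A1 and SLC5A1, given above) and none was higher. ACTB, taken here for actin, had 63068 reads at P5 and 67855 at P10, a ratio of 0.825 (0.816 to 0.834). The glucose transporter SLC2A2 (GLUT2) had 9 reads at P5 and none at P10, and GCG, the precursor of GLP-1, had no read at P5 and 5 at P10. GPBAR1, the bile acid receptor TGR5, had no read in either organoid library.

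Regional and imprinted genes that had reads enough leaned towards P10. Of 33 HOX genes, which encode position along the gut, 10 passed the minimum. Among these 10 genes 4 (40%, against 15.9% of all rows) were higher, none was lower and 9 had a ratio above 1, with a median log2 ratio of 0.97. HOXA6 and HOXA7 had 34 reads at P5 and 149 at P10 and 81 reads at P5 and 248 at P10 (3.36-fold higher, 2.3 to 5.03, and 2.35-fold higher, 1.82 to 3.06), and HOXC6, with most reads, had 540 reads at P5 and 1129 at P10. The genes of the A cluster lie side by side, and overlapping transcripts can share reads. Of 19 imprinted genes 11 passed, 4 (36.4%) were higher and none was lower. PEG10 had 5 reads at P5 and 70 at P10, PHLDA2 11 reads at P5 and 80 at P10 and MEST 207 reads at P5 and 631 at P10, with ratios of 10.7 (4.39 to 34.1), 5.58 (2.96 to 11.6) and 2.34 (2.0 to 2.75). The fetal-like and regenerative epithelium list was divided, with 5 of 22 (22.7%) lower and 3 (13.6%) higher, the latter near the share of all rows. CLU, a marker of regenerating crypts, had 7176 reads at P5 and 15613 at P10, within 2-fold, and EMP1 and ANXA1 were 4.19-fold (4.01 to 4.37) and 2.9-fold (2.51 to 3.36) lower.

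Larger families, defined by their symbols, were counted in the same way. Of 256 solute carriers 60 (23.4%) were lower and 48 (18.8%) were higher. Of 238 zinc finger genes named ZNF, 49 (20.6%) were higher and 18 (7.56%) were lower, with a median log2 ratio of 0.34. Of 22 centromere proteins 7 were higher (4 or 5 under the other scalings) and 1 was lower, and of 23 histone rows 8 were lower and 1 was higher; most replication-dependent histone mRNAs have no poly(A) tail and are poorly captured by an oligo-dT primer. Uncharacterised LOC rows, 1598 past the minimum, were divided evenly, with 324 higher and 320 lower.

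**Figure D5:**
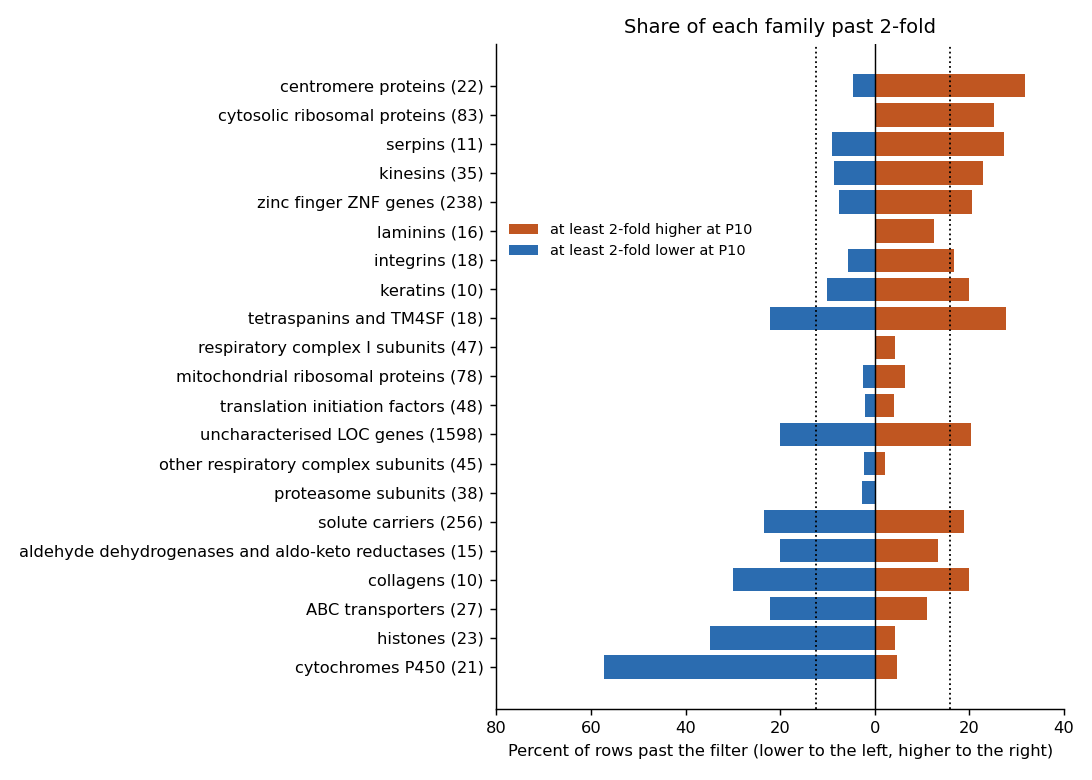
Percent of the rows past the read minimum that were at least 2-fold higher (orange, to the right) or lower (blue, to the left) at P10 in each gene family with at least 10 such rows, whose number stands in brackets; dotted lines mark the background of all rows, 15.9% higher and 12.4% lower. Cytochromes P450 reached farthest to the left, with 57.1% lower, and centromere proteins farthest to the right, with 31.8% higher under scaling to library totals, a count of 7 that was 4 or 5 under the other scalings.

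The largest single differences were ranked by the bound of the interval nearer to equality, among named genes with at least 200 reads in sum. On the higher side stood PLEKHS1, with 3 reads at P5 and 228 at P10 and a ratio of 58.3 (19.7 to 285), CHRND, a subunit of the muscle acetylcholine receptor, with 11 reads at P5 and 280 at P10, and AURKC, an Aurora kinase best known from meiosis, with 44 reads at P5 and 731 at P10. None of them exceeded 4.22 CPM in the intestine. MCF2L had 17 reads at P5 and 323 at P10, although the row overlaps LOC101902449, which was also higher. UCHL1, a ubiquitin hydrolase of neurons and endocrine cells, had 39 reads at P5 and 559 at P10 (11-fold, 7.94 to 15.6). TXNRD2, the mitochondrial thioredoxin reductase, had 32 reads at P5 and 462 at P10, EEFSEC, the elongation factor for selenocysteine, had 87 reads at P5 and 1104 at P10, and the matrix protein FBLN2 had 108 reads at P5 and 1254 at P10. SUSD4, a complement regulator, had 148 reads at P5 and 1667 at P10, and KIF12, a kinesin, had 453 reads at P5 and 4671 at P10 (7.91-fold, 7.18 to 8.73). TERT and ASCL2 completed this group.

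On the lower side, beside ANPEP, APOB, SLC13A1, SLC15A1, MGAM, SLC30A10, TAC3 and UCP3, stood PDLIM2, a PDZ and LIM domain protein, with 375 reads at P5 and none at P10, at least 163-fold lower. SARM1, an NADase, had 439 reads at P5 and 2 at P10, 286-fold (78.8 to 2370) lower; its neighbour SLC46A1, the folate transporter, was 2.69-fold (2.37 to 3.05) lower. SPACA3, a lysozyme-like protein, had 714 reads at P5 and 9 at P10 (103-fold lower, 54.2 to 227), and RETSAT, an enzyme that saturates retinol, had 690 reads at P5 and 12 at P10 (75-fold lower, 42.6 to 146). PDLIM2, SARM1 and RETSAT were at 39.7, 26.9 and 90.8 CPM in the intestine and at 27.6, 32.3 and 50.7 CPM at P5, whereas SPACA3 and SLC13A1 were at 2.08 and 0.0563 CPM there.

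Markers of the label were checked in both libraries. All 10 epithelial markers passed the minimum, with EPCAM, KRT8, KRT19 and VIL1 abundant at both passages, and 3 of them lower (CDX2, CDH17 and KRT20) and 1 higher (KRT18). Markers of other cell types were mostly at or near 0. Of 77 rows for stroma, leukocytes, endothelium, muscle, neurons and glia, 34 had no read in either organoid library and 46 had 3 or fewer in both, and 12 passed the minimum. Their summed level was 55.4 CPM at P5 and 75.7 CPM at P10, compared with 10145 CPM in the intestine and 44043 CPM in muscle. The stroma markers summed to 8.16 CPM at P5 and 5.30 CPM at P10 with COL3A1, LUM and DCN at 0 in both. FBLN1, the 1 stroma marker past the minimum, was higher with 13 reads at P5 and 74 at P10, while COL1A1 had 32 and 5. The leukocyte markers summed to 7.87 and 10.3 CPM with CD3D, CD8A and MS4A1 at 0 in both. The endothelial markers summed to 6.76 and 3.89 CPM with KDR and CLDN5 at 0 in both. None of the endothelial markers passed the minimum, with VWF at 13 reads at P5 and 34 at P10 and FLT1 at 26 and 4. Smooth and skeletal muscle markers summed to 20.7 and 20.9 CPM with DES and ACTG2 at 0 in both, while CNN1 had no read at P5 and 20 at P10. Among them ACTA2 was lower with 64 reads at P5 and 11 at P10, and MYL9 was higher with 27 reads at P5 and 103 at P10. Neuron and glia markers summed to 12 CPM at P5 and 35.4 CPM at P10, 2.95-fold (2.48 to 3.53) higher, compared with 53.7 CPM in the intestine. UCHL1 held 31.5 CPM of the P10 sum, above its 22.4 CPM in the intestine, while SOX10 and GFAP were at 0 in both. Of the 4 neuron and glia markers past the minimum 3 had a ratio below 1, and S100B was lower with 48 reads at P5 and 9 at P10. Of the leukocyte markers CD79A had no read at P5 and 35 at P10 and JCHAIN 18 reads at P5 and 82 at P10. The part of such cells in the results was not tested. XIST, the single sex-linked gene with a row, had 2 reads at P10 and none at P5.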

How the data were processed

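Total RNA of 4 bovine samples (P5 and P10 organoids, intestine and muscle) had been made into QuantSeq 3′ mRNA-Seq libraries with an oligo-dT primer and sequenced. Per the study's methods, the authors aligned the reads with Bowtie2 and counted unique and multiple alignments per gene with Bedtools, and the deposited values were read counts per gene symbol, 1 file per sample, not normalised. Closely related or overlapping genes may therefore share reads. The genome build, the animals behind each culture and whether strand was used are not given in the sources used here.

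Counts were divided here by library totals (CPM). P10 and P5 were compared by the ratio of CPM with an exact conditional binomial (Clopper-Pearson) 95% interval, in rows with at least 50 reads in the 2 libraries together. With 1 library per passage there was no test. The study's quantile normalisation was kept as an alternative, because it gives single reads unequal values and has no exact interval. Other alternatives were edgeR 4.0.16 scalings (TMM, upper quartile), totals without RN18S1, minimums of 10 and 200 reads, no minimum with 1 CPM added, rows summed by symbol, and the interval's nearer bound past 2-fold. The calculations were checked on simulated data and used Python 3.11.15, scipy 1.17.1 and R 4.3.3.

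Gene lists and families were chosen with earlier results of these data known. Genes were named by this rule: the 12 highest and 12 lowest by the nearer bound among named rows with at least 200 reads, in each list the 3 members with most reads and the members with the largest difference each way, the genes of stained proteins, and the 5 rows that gained and the 5 that lost most CPM. Some list members are not reported here. Further list members are given as examples chosen after their values were seen. Of 1098 listed symbols 1076 had a row, 7 of them under another name. RefSeq gene names and neighbours came from a table of assembly ARS-UCD2.0, in which 25297 of the 29792 rows were found, and no coordinates are given.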

Additional observations from a re-analysis of the deposited data

How the results depend on the processing

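The calls rested on counting error within 1 library per passage, so no replicate could be left out. No paired analysis was possible because each passage had 1 library and no result came from a test. With a minimum of 10 reads the lower rows became 3001, with a minimum of 200 reads 1025, and with the nearer bound of the interval required past 2-fold the higher rows became 1224. Under all other scalings and settings both counts stayed within 1.5 times those given. Among 1463 alternative values of the log2 ratio of 209 named results, 456 moved by more than the counting interval and none reversed a called direction. The share of higher rows among those past 2-fold was 56.2%, and 43.9% with RN18S1 and the mitochondrially encoded rows out of the totals, an alternative chosen after seeing the data. Of 41 list medians, those of cholesterol, keratin and muscle genes changed sign under an alternative. Promoter motifs were not described here. Depth limited the rows with few reads: of rows with 50 to under 100 reads in sum, 28.1% were higher and 27.0% lower, compared with 9.65% and 8.66% of those with 1000 to under 10000 reads.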
